A study of Mus musculus with 4 samples.

Results

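The distal convoluted tubule is the short stretch of the nephron that follows the thick ascending limb and is known for the thiazide-sensitive sodium-chloride cotransporter NCC, encoded by Slc12a3. Cells of this segment were picked from 4 droplet libraries by their transcripts. Barcodes with at least 500 unique molecular identifiers (UMIs, each standing for 1 captured transcript), at least 300 genes and a mitochondrial share under 50% were kept. A kept barcode was taken as a distal convoluted tubule (DCT) cell when it held at least 2 Slc12a3 UMIs and at least 1 UMI of Pvalb, Trpm6, Calb1, Tmem52b or Sgms2. It also had to hold fewer than 10 UMIs per 10000 of Umod, Gpx3 and Aqp2, and none of Ptprc or Pecam1. This gave 142 DCT cells of 40939 kept barcodes. They were 42, 33, 25 and 42 cells in mice 1 to 4. The levels of those genes chose the cells and are given below as a description only.

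The libraries were made from dissociated kidneys of 4 wild-type mice that had been given contrast-induced acute kidney injury (CIAKI), in which the imaging contrast agent harms the kidney. There was 1 library per mouse, and all 4 carry the label batch 1. All mice had been injured, so the comparisons below are between cell classes within injured kidneys. The sources used here do not give the contrast agent, dose, time of collection, strain, sex or age. The labels alone say that each library is a separate mouse. The p-values below weigh the mean difference between cell classes against its variation from library to library. The design text gives the make-up of the kidney's cells and their transcripts under CIAKI as the question.

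The DCT reabsorbs sodium chloride through NCC, whose activity is set by the kinases WNK1 and WNK4, by the kinase SPAK that they activate, and by the KLHL3-CUL3 ubiquitin ligase that removes WNK kinases. It is also the last segment with active magnesium uptake, through the channels TRPM6 and TRPM7. Its early part is known for parvalbumin (Pvalb), and its late part for calcium handling with calbindin (Calb1), S100g, Slc8a1 and Trpv5 and for the first subunits of the epithelial sodium channel ENaC.

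The 4 libraries held 66762741, 64757026, 105436725 and 36831995 UMIs. The kept barcodes had median depths of 5549, 5815, 5655 and 2077 UMIs in mice 1 to 4. Ribosomal protein transcripts took a median 1.48%, 1.52%, 2.35% and 13.7% of them, so library 4 stood apart in both measures. Between mice 1, 2 and 3 the pairs of libraries shared 22 to 40 kept barcodes, whereas mouse 4 shared 0 or 1 with each. None of the 142 DCT barcodes was kept in a second library.

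DCT cells made up 0.593%, 0.373%, 0.194% and 0.347% of the kept barcodes of mice 1 to 4. Their exact 95% binomial intervals ran between 0.428% and 0.800%, between 0.257% and 0.523%, between 0.125% and 0.286%, and between 0.250% and 0.469%. The mean was 0.377% ± 0.164 (SD, n = 4). The intervals of mice 1 and 3 did not overlap, while those of mice 2 and 4 overlapped for most of their length. Intervals here and below cover counting error only. The DCT cells of mice 1 to 4 together held 368264, 192658, 146227 and 115953 UMIs, with medians of 6742, 5630, 4490 and 2319 UMIs per cell. Their median mitochondrial share was 16.4%, 3.96%, 14.8% and 9.89%.

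Of 567 barcodes with at least 2 Slc12a3 UMIs, 495 held a second DCT gene. The Umod limit met 263 of those 495, the Ptprc limit 100, the Pecam1 limit 59, the Gpx3 limit 51 and the Aqp2 limit 3. Umod encodes uromodulin, the main secreted protein of the thick ascending limb, and 173 barcodes (69, 33, 14 and 57) were left out by it alone. Just inside the limit, 29 DCT cells had 5 to 10 Umod UMIs per 10000, and just outside it 52 barcodes had 10 to 20 and met every other criterion. Of the 142 cells, 20 had exactly 2 Slc12a3 UMIs, and 52 further barcodes with 1 Slc12a3 UMI met the other criteria.

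The label was checked with 6 marker genes that the rule did not use (Wnk4, Klhl3, Emx1, Sall3, Egf and Cnnm2). At least 1 of them was detected in 97.6%, 87.9%, 96.0% and 69.0% of DCT cells of mice 1 to 4, and in 38.0%, 29.2%, 9.85% and 4.95% of endothelial cells of the same mice, which served as the measure of free RNA. At least 2 were detected in 73.8%, 75.8%, 56.0% and 35.7% of DCT cells, against 8.65%, 3.13%, 1.43% and 0.900% of endothelial cells. The median depths of the endothelial cells were 6349, 6961, 5124 and 2256 UMIs, close to those of the DCT cells. In every mouse the markers were seen more often in DCT cells than in endothelial cells of like depth. They did not set DCT cells apart from the neighbouring segments as clearly. At least 1 was detected in 91.5%, 90.8%, 94.8% and 79.8% of thick ascending limb cells, more often than in DCT cells in mice 2 and 4, and at least 2 in 49.1%, 51.5%, 45.8% and 23.8%, less often than in DCT cells in each mouse. Egf in particular was higher in the thick ascending limb, as given below. In the Calb1-positive cells without Slc12a3 described below, at least 1 was detected in 92.3%, 64.9% and 61.6% of cells of mice 1, 3 and 4, and at least 2 in 53.8%, 27.0% and 20.1%. The Calb1-positive cells of these mice had greater median depths than the DCT cells, as given below. No DCT cell held 2 or more UMIs of Slc12a1, the cotransporter of the thick ascending limb.

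The DCT cells also carried many transcripts of the connecting tubule, the next segment. The 8 connecting tubule markers, of which Calb1 is also a DCT marker and part of the rule, summed to 19106, 5653, 18834 and 47485 counts per 1000000 UMIs of the class (CPM) in the summed DCT cells of mice 1 to 4, and the 12 DCT markers to 11228, 13174, 9102 and 7805 CPM. The connecting tubule sum was the higher one in mice 1, 3 and 4. In Calb1-positive cells of mice 1, 3 and 4 the connecting tubule markers summed to 22610, 28723 and 27187 CPM, so mouse 4 had the higher sum in DCT cells. Most of that sum in mouse 4 was S100g, at 34824 CPM. Leaving out DCT cells with fewer than 10 Slc12a3 UMIs per 10000, 8 of them in mouse 4, changed the sum there to 28897 CPM. In mice 1 to 3 the sums were then 19961, 1497 and 20952 CPM. Most of the excess of mouse 4 over its Calb1-positive cells thus rested on DCT cells with little Slc12a3. Klk1, the gene of tissue kallikrein, was at 5702, 1017, 8856 and 7814 CPM in DCT cells, and was also at 8416, 6248, 2488 and 6542 CPM in thick ascending limb cells. Hsd11b2, the aldosterone-related enzyme of the connecting tubule, had 2 UMIs in all DCT cells together. Late DCT cells and Slc12a3-positive connecting tubule cells cannot be told apart by this selection.

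Slc12a3 itself was at 5214, 7983, 2311 and 2587 CPM in the summed DCT cells of mice 1 to 4. Endothelial cells held an Slc12a3 UMI in 5.62%, 2.60%, 0.999% and 0.562% of cases. Parvalbumin, the classical protein of the early DCT, was nearly absent. Only 8 of the 142 cells held a Pvalb UMI (2, 2, 3 and 1 cells), and 18 of the 25 Pvalb UMIs came from 3 cells of mouse 3. Over all 40939 kept barcodes the 4 libraries held 160 Pvalb UMIs in 89 barcodes, of which 59 also had at least 2 Slc12a3 UMIs. A single DCT cell exceeded 10 Pvalb UMIs per 10000, so the planned contrast of Pvalb-high with Pvalb-low cells could not be made.

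Trpm6, the magnesium channel of this segment, was at 171, 1023, 1805 and 86.2 CPM in DCT cells and was detected in 21, 25, 17 and 7 of them. It was high in mice 2 and 3 and low in mice 1 and 4. Calb1 was at 2933, 1734, 3105 and 3933 CPM, in 27, 17, 18 and 35 cells. It varied less between mice than Trpm6 did. Both genes belong to the selection rule.

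**Figure D1:**
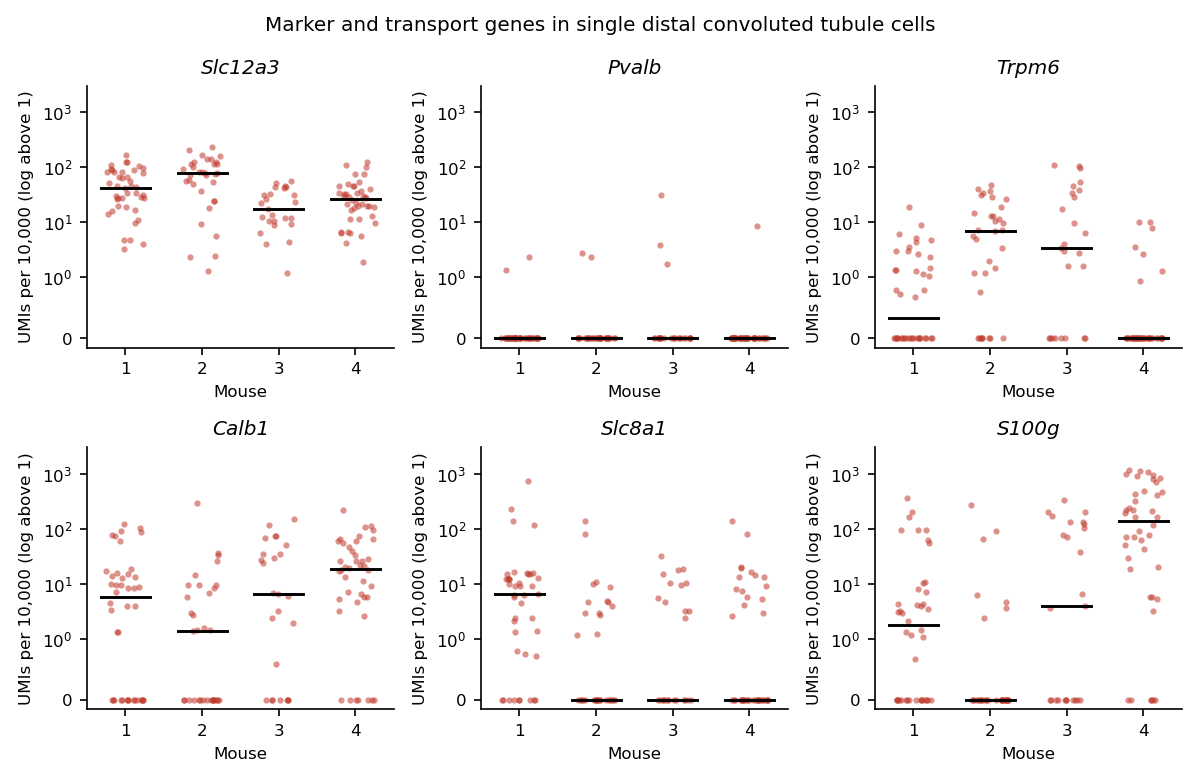
Each point is 1 of the 142 DCT cells, by mouse on the x axis, with UMIs per 10000 of 6 genes on the y axis (log scale above 1, linear below) and black lines at the median of the mouse. Slc12a3 is present in every cell by the rule, Pvalb is at 0 in all but 8 cells, and S100g has a median of 141 per 10000 in mouse 4 and of 3.90 or less in mice 1 to 3.

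The late-DCT calcium genes were spread unevenly over the cells. Slc8a1, the sodium-calcium exchanger that moves calcium into the blood, was at 6463, 1422, 568 and 750 CPM in DCT cells of mice 1 to 4. Mouse 1 stood far above the other 3 mice. A single cell supplied 47.0% of the Slc8a1 UMIs of mouse 1 and another 76.3% of those of mouse 2. S100g, the small cytosolic calcium-binding protein calbindin-D9k, was at 3921, 1396, 6168 and 34824 CPM, with mouse 4 far above the rest. In mouse 2, 81.4% of the S100g UMIs and 72.8% of the Calb1 UMIs lay in 1 cell each. When the 24 cells with fewer than 10 Slc12a3 UMIs per 10000 were left out, Slc8a1, S100g and Calb1 of mouse 2 were at 435, 283 and 262 CPM, so the mouse 2 values of these genes rest on cells with little Slc12a3.

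Slc8a1 reached 10 or more UMIs per 10000 in 34 DCT cells (17, 3, 6 and 8 of mice 1 to 4) and stayed below it in 108. Of these, 24 above and 16 below lay between 5 and 20 per 10000, so the split divides a range rather than types. S100g was detected in 26 of the 34 cells and in 57 of the 108, but in mouse 4 in 7 of 8 and 29 of 34. Summed S100g was higher above the cut in mouse 1 only (6106 against 1487 CPM). In mice 2, 3 and 4 it was lower there, at 374, 5263 and 20917 CPM against 1542, 6408 and 37178 CPM. Calb1 was detected in 27 of 34 and 70 of 108, Trpv5, the apical calcium channel, in 9 of 34 and 5 of 108, and Scnn1b, the beta subunit of ENaC, in 12 of 34 and 21 of 108. Scnn1g, the gamma subunit, was detected in 5 of 34 and 3 of 108, and Trpm6 in 20 of 34 and 50 of 108. All 5 cells below the cut with Trpv5 came from mouse 3. These counts pool the mice, and 17 of the 34 cells came from mouse 1. In that mouse the median depth was 8562 UMIs above the cut and 6273 below it, while in mice 2, 3 and 4 it was lower above the cut. Trpv5 was at 24.4, 15.6, 68.4 and 0 CPM in DCT cells of mice 1 to 4. In mouse 4 the count of 0 allows up to 25.9 CPM (3 counts). The cells were split on a gene of the same list, so the shares are a description.

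Slc8a1 was detected in 78.6%, 42.4%, 48.0% and 38.1% of DCT cells and in 8.07%, 6.6%, 15.9% and 4.95% of endothelial cells. S100g was detected in 61.9%, 21.2%, 56.0% and 85.7% of DCT cells, against 9.08%, 3.60%, 3.52% and 19.6% of endothelial cells. For both genes the share in DCT cells was above that background in each mouse.

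The 173 barcodes that only the Umod limit left out differed from the DCT cells in several transcripts. These are given as a description, and the genes were chosen after their values were seen. Pvalb was at 5.43, 20.8, 123 and 8.62 CPM in DCT cells and 20.4, 40.9, 189 and 79.1 CPM in the excluded barcodes of mice 1 to 4, higher in the excluded barcodes of each mouse. It was found in 2, 2, 3 and 1 DCT cells and in 12, 5, 5 and 9 excluded barcodes. DCT cells held more Slc8a1, at 6463, 1422, 568 and 750 CPM against 216, 196, 136 and 89.7 CPM in the excluded barcodes of mice 1 to 4. They held more Cnnm2, a gene needed for basolateral magnesium transport, at 396, 317, 239 and 112 CPM against 116, 131, 31.5 and 79.1 CPM. They held less Egf, at 323, 228, 581 and 69.0 CPM against 701, 360, 1302 and 190 CPM, and less Spp1, at 20955, 6950, 14436 and 36351 CPM against 32884, 31142, 35564 and 48402 CPM. Slc8a1, Cnnm2, Egf and Spp1 each kept 1 direction in all 4 mice. Slc12a3 did not, with 5214, 7983, 2311 and 2587 CPM in DCT cells and 5444, 6009, 3443 and 4016 CPM in the excluded barcodes. The 8 thick ascending limb markers, Umod among them, summed to 5284, 3976, 2183 and 3704 CPM in the excluded barcodes, against 20700, 18376, 11014 and 16370 CPM in thick ascending limb cells of mice 1 to 4. The part of early DCT cells, of free Umod RNA and of doublets among the excluded barcodes was not tested.

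**Figure D2:**
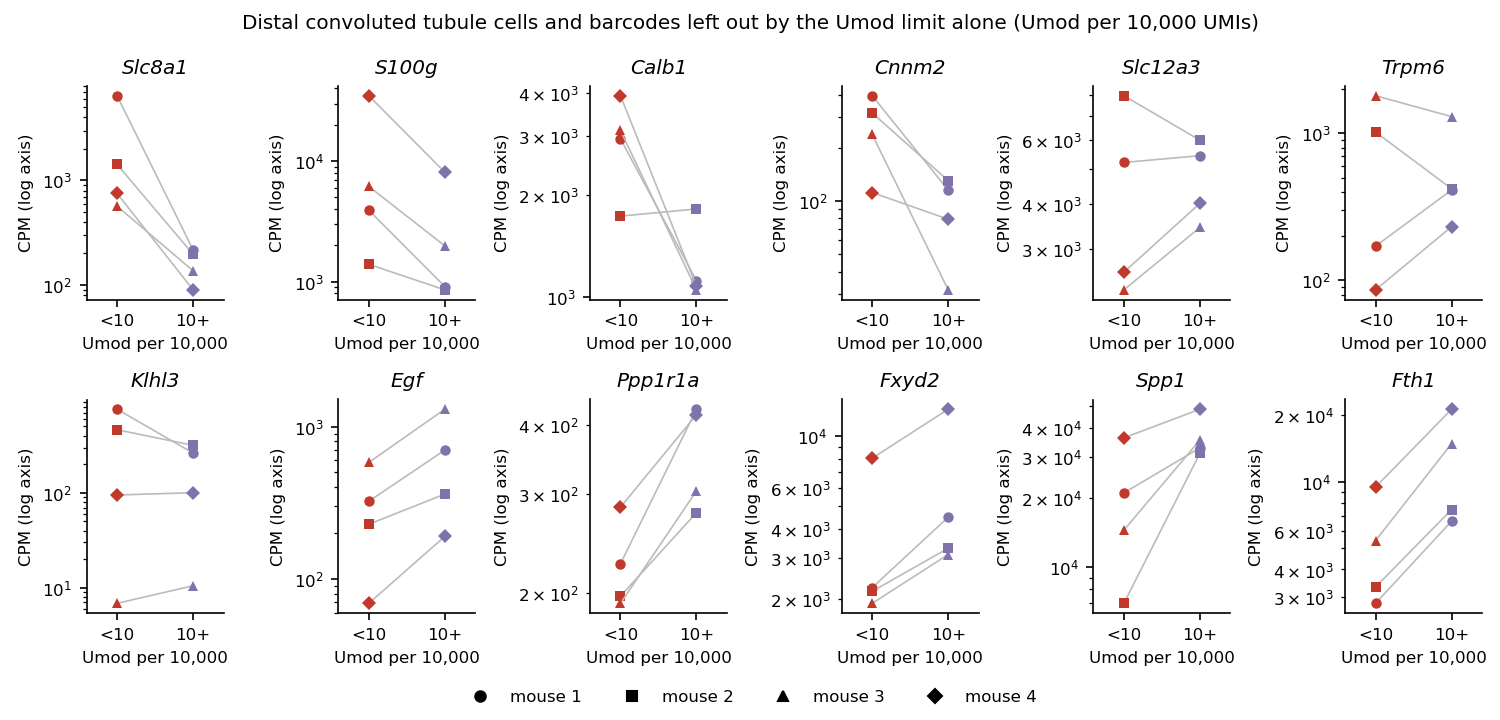
CPM (log axis) of 12 genes in summed DCT cells (left, Umod under 10 per 10000) and in the 173 barcodes left out by the Umod limit alone (right), with lines joining the 2 values of a mouse. Slc8a1, S100g and Cnnm2 lie higher in DCT cells of all 4 mice, and Egf, Ppp1r1a, Fxyd2, Spp1 and Fth1 lie lower in all 4.

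To place the segment between its neighbours, UMIs were summed per mouse and class and tested with edgeR's quasi-likelihood test with the mouse as a block, adjusted by Benjamini-Hochberg over all genes tested. Thick ascending limb (TAL) cells were chosen by at least 2 Slc12a1 UMIs, at least 10 Umod UMIs per 10000 and no Slc12a3, with the same limits on the other genes, which gave 436, 163, 345 and 277 cells. Genes used to choose either class were not tested. Genes that vary with Umod, or with Calb1, which 97 of the 142 DCT cells held, are not independent of the choice. Of 7049 genes tested, 339 (4.81%) were higher and 377 (5.35%) were lower in DCT than in TAL cells at an adjusted p under 0.05, 10.2% in all. The median log2 fold change of all genes tested was -0.03. Without the mouse as a block the counts were 54 higher and 65 lower.

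Among the regulators of NCC, 4 of 15 genes were higher in DCT cells, 1 was lower and 10 were not called, with a median log2 fold change of 0.06. Wnk1, whose kidney-specific form acts on NCC, was at 1572, 810, 328 and 733 CPM in DCT cells, against 401, 524, 133 and 245 CPM in TAL cells of mice 1 to 4. Each mouse had the higher value in DCT cells (log2 fold change 1.29 ± 0.29 SE, adjusted p = 0.00489). The Wnk1 call was lost in 4 of 15 other settings, with the same direction. Among them were leaving out mouse 1 and the stricter limits of 5 or more Slc12a3 UMIs and of 10 or more per 10000. Klhl3, the adaptor that hands WNK kinases to the CUL3 ligase, was at 760, 462, 6.84 and 94.9 CPM in DCT cells, against 65.7, 49.5, 9.88 and 18.9 CPM in TAL cells. It was higher in 3 of 4 mice and rested on 1 UMI in mouse 3 (2.78 ± 0.39 SE, adjusted p = 2.34e-05). Wnk4 (0.94 ± 0.29 SE, adjusted p = 0.0396) and the potassium channel gene Kcnj10 (1.00 ± 0.31 SE, adjusted p = 0.0408) passed narrowly. Wnk4 lost its call in 11 of 15 other settings and Kcnj10 in 8 of 14, each time with the same direction. Ppp1r1a, which encodes an inhibitor of protein phosphatase 1, was lower, at 225, 197, 191 and 285 CPM in DCT cells against 854, 763, 230 and 735 CPM in TAL cells (-1.50 ± 0.31 SE, adjusted p = 0.00197). Stk39, the gene of SPAK, was not called, with a log2 fold change of 0.06 ± 0.31 SE.

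Genes of magnesium transport split by segment. Of 13 listed genes, 10 were tested, 3 were higher in DCT cells, 3 were lower and 4 were not called, with a median log2 fold change of -0.23. Cnnm2 was at 396, 317, 239 and 112 CPM in DCT cells, against 51.3, 39.9, 38.9 and 18.9 CPM in TAL cells, and the 2 sets did not overlap (2.74 ± 0.27 SE, adjusted p = 1.23e-07). Trpm7, the channel kinase that assembles with TRPM6, was at 945, 1401, 198 and 181 CPM in DCT cells and 125, 136, 119 and 43.7 CPM in TAL cells (2.28 ± 0.37 SE, adjusted p = 0.00013). The receptor gene Egfr was higher too (1.27 ± 0.29 SE, adjusted p = 0.00508). Egf, the growth factor whose loss causes magnesium wasting in humans, was at 323, 228, 581 and 69.0 CPM in DCT cells and 3779, 2898, 1850 and 863 CPM in TAL cells (-3.17 ± 0.36 SE, adjusted p = 1.19e-06). Cldn16 and Cldn19, which form the paracellular magnesium and calcium path of the TAL, had 1 and 2 UMIs in all DCT cells together. Cldn16 was 132-fold higher in TAL cells (exact 95% interval 23.7 to 5218) and Cldn19 46.1-fold (12.7 to 381), by pooled UMIs.

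Calcium genes were mostly higher in DCT cells, with the limit that Calb1, itself a calcium gene, helped to choose these cells. Of 10 listed genes, 8 were tested, 5 were higher, 1 was lower and 2 were not called, with a median log2 fold change of 1.15. Slc8a1, with the DCT values given above, was at 12.6, 25.4, 42.9 and 17.7 CPM in TAL cells (5.82 ± 0.60 SE, adjusted p = 2.37e-07). S100g was at 117, 191, 52.2 and 1099 CPM in TAL cells (4.88 ± 0.49 SE, adjusted p = 1.66e-07). For Slc8a1 and S100g every DCT value lay above every TAL value. Kl, the gene of the FGF23 co-receptor klotho, was at 481, 135, 745 and 69.0 CPM in DCT cells and 150, 175, 52.8 and 37.8 CPM in TAL cells, with mouse 2 in the other direction (1.56 ± 0.45 SE, adjusted p = 0.0283). Atp2b4, a plasma membrane calcium pump, and Vdr, the vitamin D receptor, were higher by 1.33 and 0.97 on the log2 scale (adjusted p = 0.0104 and 0.0279), Vdr in 3 of 4 mice, with 51.7 CPM in DCT cells and 53.2 CPM in TAL cells of mouse 4. The calls of Kl, Atp2b4 and Vdr each failed in 6 or more of the other settings. Casr, the calcium-sensing receptor, was at 21.7, 31.1, 0 and 0 CPM in DCT cells and 132, 146, 90.5 and 65.0 CPM in TAL cells (-2.93 ± 0.42 SE, adjusted p = 3.22e-05). Its counts of 0 in the DCT cells of mice 3 and 4 allow up to 20.5 and 25.9 CPM.

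Among the ENaC and aldosterone genes, 10 of 12 were tested, 2 were higher in DCT cells, none was lower and 8 were not called, with a median log2 fold change of -0.30. Scnn1b was at 40.7, 46.7, 61.5 and 138 CPM in DCT cells and 0.267, 0.688, 0.309 and 2.36 CPM in TAL cells, where it had 5 UMIs in all (6.38 ± 0.55 SE, adjusted p = 1.71e-08). Nr3c2, the mineralocorticoid receptor, was higher (1.21 ± 0.28 SE, adjusted p = 0.00573). Scnn1a, the alpha subunit, was at 247, 218, 171 and 198 CPM in DCT cells and 237, 257, 198 and 225 CPM in TAL cells, and was not called.

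Transcription factors separated the segments in both directions, with 4 of 17 tested genes higher in DCT cells, 4 lower and 9 not called (20 listed, median -0.16). Emx1 was at 215, 109, 20.5 and 138 CPM in DCT cells and had 3 UMIs in all TAL cells together, a pooled ratio of 447 (exact 95% interval 149 to 2200). Lhx1 (6.56 ± 0.58 SE) and Gata3 (5.19 ± 0.46 SE) were higher in each mouse, both at an adjusted p of 1.95e-08, and Dach1 was higher by 1.30 (adjusted p = 0.00703). Irx1 and Irx2 had no UMI in any DCT cell and 1199 and 1131 UMIs in TAL cells, which makes them at least 35.4-fold and 33.4-fold lower in DCT cells (3 counts over all DCT cells). Irx3 had 1 UMI in DCT cells and was 40.5-fold higher in TAL cells (7.24 to 1604). Emx2, a relative of Emx1, went the other way from it (-1.44 ± 0.42 SE, adjusted p = 0.0274) and lost its call in 5 of 13 other settings.

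Over all genes tested, the largest differences towards DCT cells by the naming rule were in Emx1, Lhx1, Scnn1b, Slc8a1, Phactr1, Cdk14, Gata3, Angpt1, S100g and Lypd6b. Phactr1, which binds actin and protein phosphatase 1, was higher by 5.77 on the log2 scale, and Cdk14, a cyclin-dependent kinase, by 5.44. Angpt1, the ligand of the endothelial receptor TIE2, was higher by 4.93 (adjusted p = 2.92e-07). The largest differences towards TAL cells were in Itgb8, Irx1, Irx2, Tenm2, Sim2, Enox1, Slc9a3, Cldn10, Slc5a1 and Eprn. Itgb8, an integrin subunit, Tenm2, an adhesion protein, and Sim2, a transcription factor, had no UMI in DCT cells and were at least 47.6-fold, 23.2-fold and 17.7-fold lower there. Slc9a3, the apical sodium-proton exchanger NHE3, had 1 UMI in DCT cells and 4214 in TAL cells. Cldn10, which forms the paracellular sodium path of the TAL, had 2 and 5324.

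**Figure D3:**
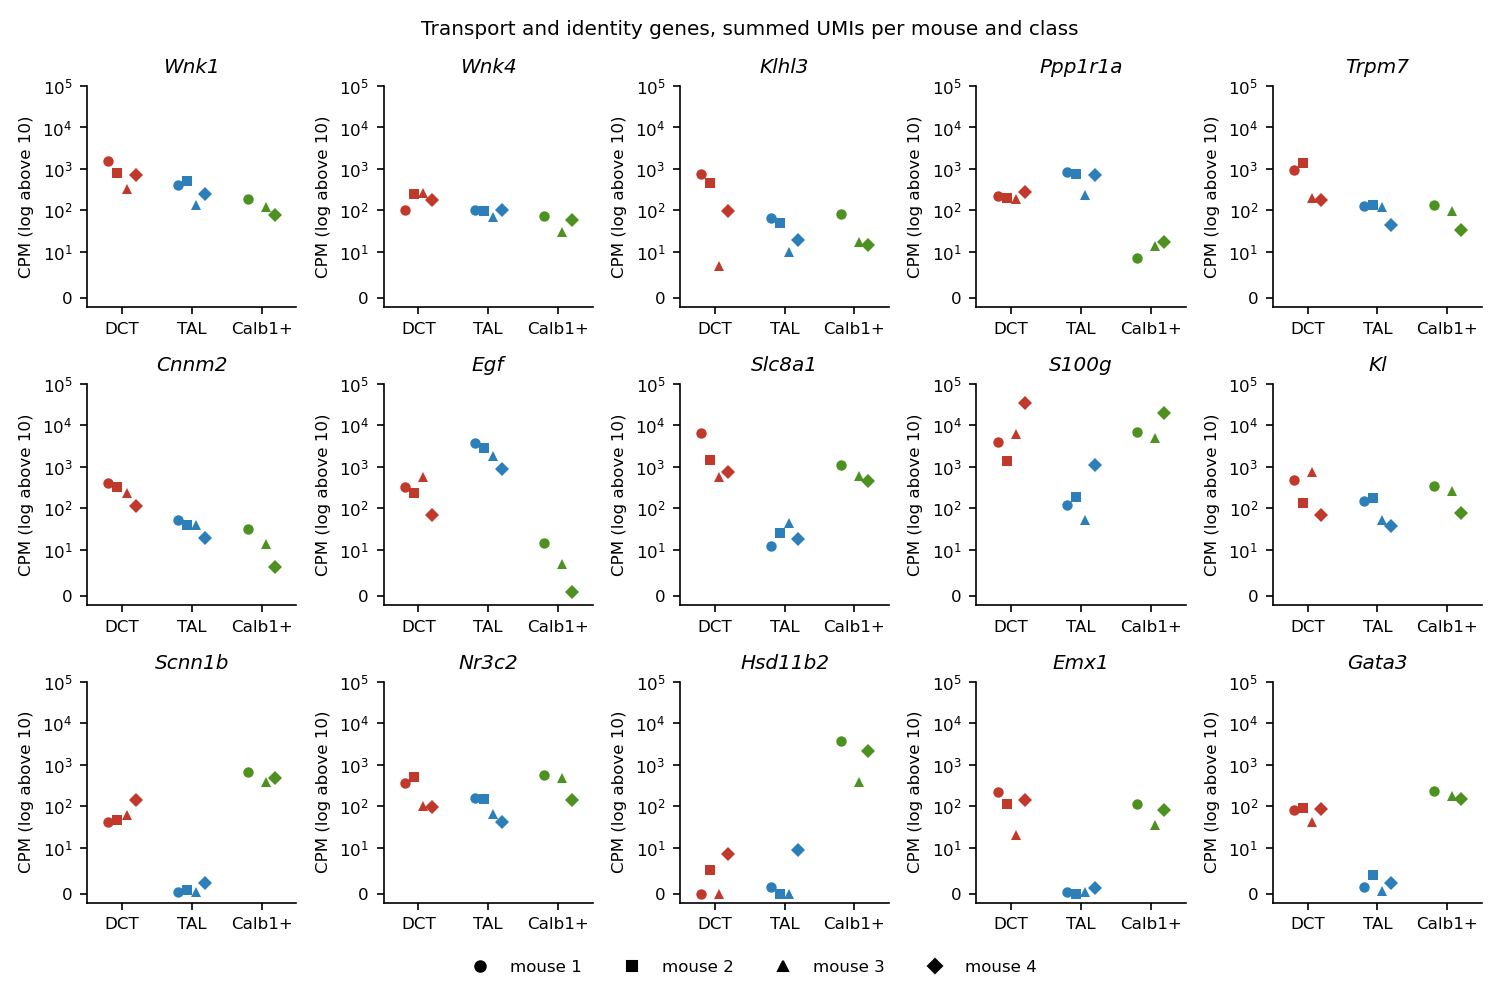
CPM (log scale above 10, linear below) of 15 transport and identity genes in DCT cells, TAL cells and Calb1-positive cells without Slc12a3, with 1 symbol per mouse (mouse 2 had 8 Calb1-positive cells and is not drawn there). Cnnm2 and Slc8a1 are higher in DCT than in TAL cells of each mouse, and Hsd11b2 is at 8.62 CPM or less in DCT cells.

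Injury genes moved in both directions between the segments. Of 16 listed injury genes 9 were tested, 2 were higher in DCT cells, 2 were lower and 5 were not called (median 0.21). Havcr1, the gene of the injury marker KIM-1, had UMIs in 1 DCT cell, in mouse 3, and was too low to test. Lcn2, which encodes the urinary injury marker NGAL, was at 266, 825, 2394 and 1992 CPM in DCT cells and 1331, 1252, 10257 and 8298 CPM in TAL cells (-1.87 ± 0.33 SE, adjusted p = 0.000379). It was lower in the DCT cells of all 4 mice. Clu, the chaperone clusterin, was at 1404, 576, 2482 and 3872 CPM in DCT cells and 281, 251, 578 and 327 CPM in TAL cells, higher in the DCT cells of each mouse (2.21 ± 0.34 SE, adjusted p = 5.99e-05). Cd24a was lower (-1.54 ± 0.28 SE, adjusted p = 0.000497). Spp1, the gene of osteopontin, was not called, with a log2 fold change of -1.08 ± 0.37 SE and an adjusted p of 0.061. It was at 18314, 25877, 42802 and 57030 CPM in TAL cells, with mouse 1 in the other direction.

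The other lists are set beside the 10.2% of all genes tested that were called. Among 11 genes of the unfolded protein response 7 were tested and 3 were lower in DCT cells, with none higher (median -0.48). They were Herpud1 (-2.17, adjusted p = 3.11e-05), Hspa5, the chaperone BiP (-1.09, adjusted p = 0.022), and Xbp1 (-1.06, adjusted p = 0.0483), of which Xbp1 lost its call in 9 and Hspa5 in 6 of 15 other settings. Of 18 genes of mitochondrial energy metabolism 2 were lower and 16 not called (median -0.68). These 2 were Ckb, the brain-type creatine kinase (-2.79, adjusted p = 8.98e-06), and Acadm, which oxidises medium-chain fatty acids (-1.67, adjusted p = 0.00139). Of 16 tested genes for metallothioneins and oxidant defence 2 were higher, Hmox1 (1.83, adjusted p = 0.00489) and Srxn1 (1.53, adjusted p = 0.00134), and 2 were lower, Fth1 and Gpx4, each losing its call in 5 other settings. In inflammation 8 genes were tested, with Tnfaip3 higher (2.16, adjusted p = 0.00112) and Il34 (-2.34, adjusted p = 7.68e-05) and Cd59a (lost in 5 of 14) lower. Of 8 tested interferon and MHC genes Ifi27 (-1.67, adjusted p = 0.00146) and H2-K1 (-1.06, adjusted p = 0.0209, lost in 7 of 15 other settings) were lower. Immediate-early genes had 1 call among 15, Nr4a1 (1.44, adjusted p = 0.0154, lost in 8 of 14 other settings), heat shock genes 1 among 11, and glycolysis and hypoxia 0 among 11. Ptger3, a prostaglandin E2 receptor of the TAL, was lower among 6 tested hormone receptors (-4.00, adjusted p = 6.49e-07), beside Casr. Tight junction genes held Cldn4 as the 1 higher gene (4.22 ± 0.37 SE, adjusted p = 1.95e-08) and 4 lower ones of 9 tested. In cell cycle 2 of 7 genes were tested and neither was called.

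The sums rest on 42, 33, 25 and 42 cells a mouse, and leaving out mouse 3 raised the calls to 528 higher and 637 lower, while leaving out mouse 1 reduced them to 116 and 138 and leaving out mouse 2 to 171 and 234. In mouse 3 the stromal markers summed to 438 CPM in DCT cells against 56.5 CPM in its TAL cells, and without the cells that held stromal or endothelial markers the counts were 330 higher and 396 lower.

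The second neighbour is the connecting segment. Cells with at least 2 Calb1 UMIs and a UMI of Slc8a1, Trpv5, Scnn1b, Scnn1g or S100g but no Slc12a3 were taken, 26, 8, 37 and 318 in mice 1 to 4. Mouse 2 had fewer than 10 and left the fit, so mice 1, 3 and 4 were compared. These Calb1-positive cells are not a pure connecting tubule class. The 6 principal cell markers, with Aqp2 unrestricted, summed to 9219, 2362 and 13597 CPM in them, against 95, 47.9 and 103 CPM in DCT cells of mice 1, 3 and 4. Their median mitochondrial shares were 6.55%, 6.0% and 1.95%, against 16.4%, 14.8% and 9.89% in DCT cells. They were also deeper, with medians of 9575.5, 16244 and 7592.5 UMIs per cell against 6742, 4490 and 2319 in DCT cells. The part of the principal cell markers, the mitochondrial shares and the depths in the differences below was not tested.

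Over 5424 tested genes, 231 (4.26%) had higher and 237 (4.37%) had lower levels in DCT cells, 8.63% in all, and the median log2 fold change was -0.01. Without the mouse as a block there were 8 higher and 9 lower. NCC regulators had 4 higher genes of 14 tested and none lower (median 0.57). Wnk1 was at 1572, 328 and 733 CPM in DCT cells and 187, 121 and 76.0 CPM in Calb1-positive cells (2.85 ± 0.40 SE, adjusted p = 0.000761). Wnk4 was at 100, 260 and 181 CPM in DCT cells and 74.6, 29.4 and 59.1 CPM in Calb1-positive cells (1.89 ± 0.41 SE, adjusted p = 0.0112). Klhl3 was higher in 2 of 3 mice (2.66 ± 0.55 SE, adjusted p = 0.00994). Ppp1r1a was at 225, 191 and 285 CPM in DCT cells and 8.61, 13.8 and 17.7 CPM in Calb1-positive cells (4.24 ± 0.34 SE, adjusted p = 1.26e-05). For Wnk1, Wnk4 and Ppp1r1a the values of the 2 classes did not overlap.

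All 4 called magnesium genes of 8 tested were higher in DCT cells (median 1.30). Egf was at 323, 581 and 69.0 CPM in DCT cells and 14.3, 6.92 and 0.845 CPM in Calb1-positive cells (5.81 ± 0.45 SE, adjusted p = 9.44e-06). Cnnm2 was higher by 4.14 ± 0.34 SE (adjusted p = 1.26e-05) and Trpm7 by 2.33 ± 0.40 SE (adjusted p = 0.00264). Fxyd2, the gamma subunit of the sodium pump, was higher by 1.87 ± 0.39 SE (adjusted p = 0.0103). Egf levels thus lay between those of TAL and Calb1-positive cells in each of mice 1, 3 and 4.

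Calcium genes gave 2 higher and 1 lower of 6 tested, since Slc8a1, S100g and Trpv5 were used to choose the Calb1-positive cells. Atp2b4 (2.09 ± 0.45 SE, adjusted p = 0.0112) and Pth1r, the parathyroid hormone receptor (2.30 ± 0.47 SE, adjusted p = 0.00847), were higher. Trpv6, a calcium channel, was lower (-2.47 ± 0.66 SE, adjusted p = 0.0331) and rested on 5 UMIs in DCT cells. Untested by the choice of cells, S100g stood at 3921, 6168 and 34824 CPM in DCT cells and 6935, 5054 and 19780 CPM in Calb1-positive cells, and Scnn1b at 40.7, 61.5 and 138 CPM against 669, 389 and 463 CPM.

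Genes of aldosterone action were lower in DCT cells or not called, with 2 lower of 10 tested. Hsd11b2, the enzyme that keeps corticosterone from the mineralocorticoid receptor, had 1 UMI in DCT cells and 6471 in Calb1-positive cells, 1239-fold by pooled UMIs (exact 95% interval 222 to 48927). Sgk1, an aldosterone-induced kinase, was at 19.0, 61.5 and 8.62 CPM in DCT cells and 531, 170 and 288 CPM in Calb1-positive cells (-3.31 ± 0.56 SE, adjusted p = 0.0025). Nr3c2 was not called (-0.91 ± 0.38 SE). Of 14 tested identity factors 3 were lower, Gata2, Emx2 and Gata3, of which Gata3 lost its call in 6 of 13 other settings. Gata2 had no UMI in the DCT cells of these 3 mice and was at least 34.3-fold lower. Emx1 (0.81 ± 0.35 SE) and Lhx1 (1.02 ± 0.44 SE) were not called.

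The largest differences towards DCT cells over all genes were in Prkd1, Egf, Dysf, Stk32b, Cwh43, Gcnt2, Ppp1r1a, Sfrp1, Abca13 and Cnnm2. Prkd1, the gene of protein kinase D1, had 131 UMIs in DCT cells and 3 in Calb1-positive cells, a pooled ratio of 228 (76.4 to 1121). Dysf, the membrane repair protein dysferlin, was higher by 5.66 (adjusted p = 0.000256), and Sfrp1, a secreted Wnt antagonist, by 4.17 (adjusted p = 0.00315). Among the largest towards Calb1-positive cells was Kcne1, a potassium channel subunit, which had no UMI in DCT cells and was at least 103-fold lower. Mgat4c, Samd12, Tmem158 and Fam174b also had none, and Hsd11b2, Gata2, Aqp3 and Fxyd4 were among the largest too. Aqp3 and Fxyd4 are among the principal cell markers.

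**Figure D4:**
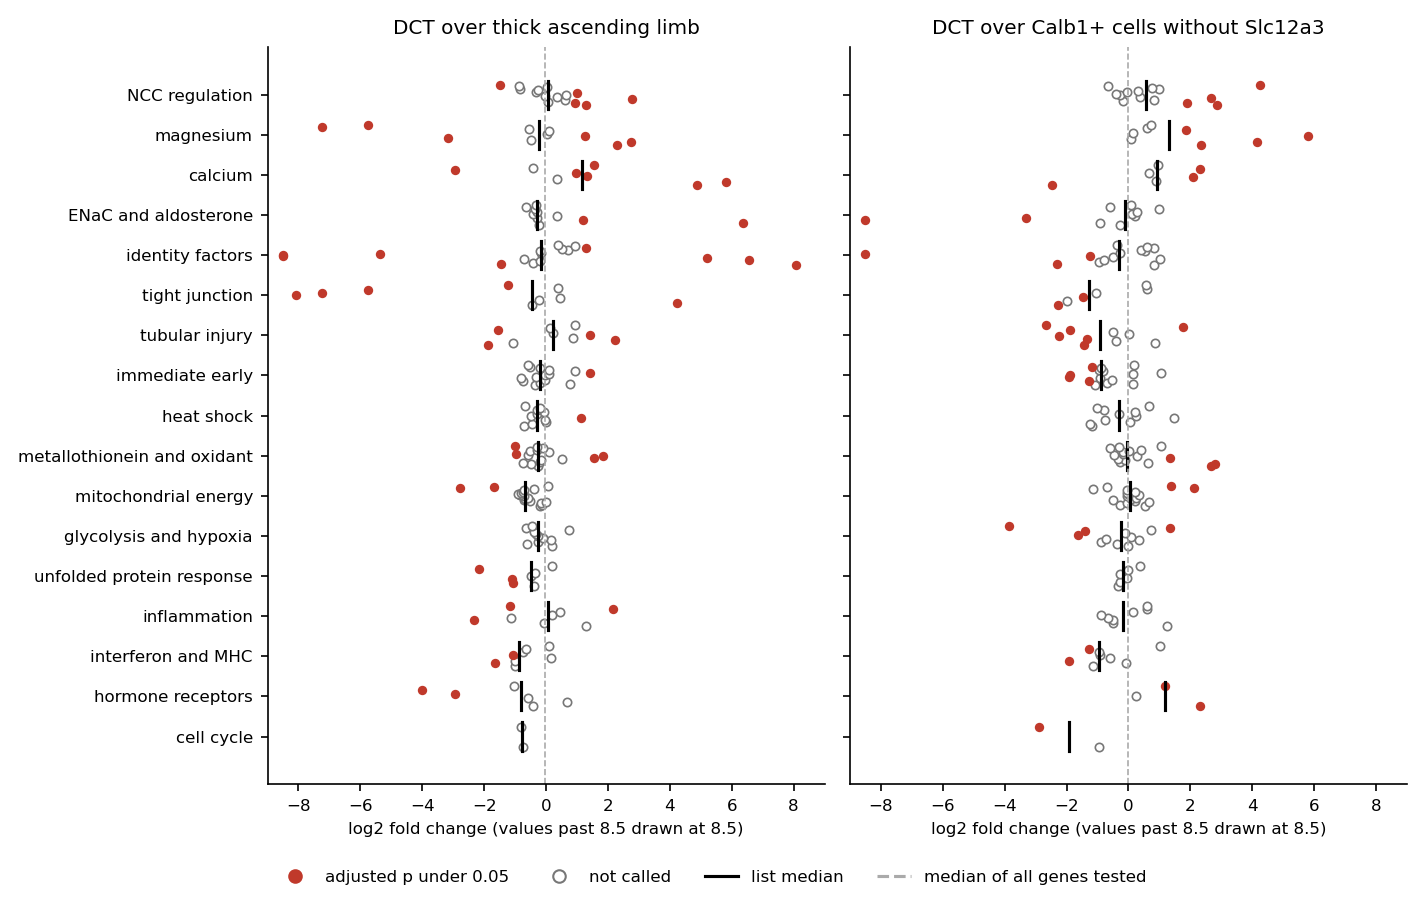
Log2 fold changes of the listed genes in DCT over TAL cells (left) and over Calb1-positive cells without Slc12a3 (right), with 1 row per list; values past 8.5 are drawn at 8.5. Filled points passed an adjusted p under 0.05, short black lines are list medians and the dashed line is the median of all genes tested (-0.03 and -0.01). The magnesium list has its called genes on both sides on the left and only on the higher side on the right.

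Of 10 tested injury genes 1 was higher and 5 were lower in DCT cells (median -0.93). Lcn2 was at 266, 2394 and 1992 CPM in DCT cells and 884, 6652 and 6689 CPM in Calb1-positive cells (-1.45 ± 0.34 SE, adjusted p = 0.0179), so it was lower in DCT cells than in either neighbour in mice 1, 3 and 4. Against Calb1-positive cells its call was lost in 4 of 14 other settings, leaving out mouse 1 and leaving out mouse 4 among them. Krt18 (-2.23 ± 0.35 SE, adjusted p = 0.00151), Krt8, Cd24a and Anxa1 were lower too, and Cdkn1a, the cell cycle inhibitor p21, was higher (1.77 ± 0.29 SE, adjusted p = 0.00234). Clu (-0.40 ± 0.44 SE) and Spp1 (0.87 ± 0.57 SE) were not called. The metallothioneins Mt1 (2.66 ± 0.55 SE, adjusted p = 0.00883) and Mt2 (2.80 ± 0.44 SE, adjusted p = 0.00171) were higher, with Srxn1 as the third of 16 tested genes of that list (its call was lost in 9 of 13 other settings). Mt1 was at 1662, 4623 and 22759 CPM in DCT cells and 884, 266 and 4294 CPM in Calb1-positive cells.

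Of 15 immediate-early genes 4 were lower, Egr1, Ier2, Junb and Zfp36, and none was higher (median -0.88). Of 12 tested glycolysis and hypoxia genes Adm, Slc2a1 and Ndrg1 were lower and Bnip3 was higher, with the Bnip3 call lost in 7 of 13 other settings. Ckb (2.12 ± 0.48 SE, adjusted p = 0.015) and Cpt1a (1.37 ± 0.30 SE, adjusted p = 0.0128) were higher among 18 genes of mitochondrial energy. Bst2 and Psmb8 (lost in 5 of 13) were lower among 8 interferon and MHC genes, and Ccnd1 as 1 of 2 cell cycle genes. Cldn3 and Cldn7 were lower among 6 tight junction genes. Cldn7 lost its call in 4 of 13 other settings, leaving out any 1 mouse among them. The calls of Ier2, Junb, Zfp36, Slc2a1, Ndrg1, Cpt1a and Bst2 were each lost without mouse 1 and also without mouse 4. Igf1r and Pth1r were higher among 3 hormone receptors, and Igf1r lost its call in 6 of 13 other settings, leaving out any 1 mouse among them. No gene was called among 11 heat shock, 6 unfolded protein response and 8 inflammation genes. With 3 mice, leaving out mouse 1 left 76 higher and 83 lower genes and leaving out mouse 4 left 136 and 179, whereas leaving out mouse 3 gave 352 and 378. Without the DCT cells that held stromal or endothelial markers the counts were 378 and 376.

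The 4 mice differed among themselves. By a fixed rule of size, a gene at 100 CPM or more in the DCT cells of 1 mouse and at least 4-fold above the highest of the others (or above the limit that a count of 0 allows), 2, 5, 84 and 175 genes stood out in mice 1 to 4. There is 1 library per mouse, so these carry no test. In mouse 1 they were Slc8a1 and Fam13a. Mouse 2 had the mitochondrial protease gene Immp2l, at 265 CPM in its DCT cells and at 41.0 CPM or less in the others, and Nrxn3, Aff2 and Dcdc2a among its 5.

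In mouse 3 the list was led by interferon-induced GTPase genes. Gbp2 was at 2.72, 5.19, 657 and 0 CPM in DCT cells of mice 1 to 4 and was detected in 17 of the 25 cells of mouse 3. Gbp3 was at 0, 10.4, 650 and 0 CPM, Iigp1 at 19.0, 5.19, 438 and 0 CPM and Ifit3, an antiviral effector, at 2.72, 0, 431 and 0 CPM. Cxcl10, an interferon-induced chemokine named after its values were seen, was at 5.43, 20.8, 1347 and 103 CPM, in 2, 1, 20 and 2 cells. The same genes were high in the TAL cells of mouse 3, where Gbp2 was at 3.74, 3.44, 1874 and 2.36 CPM in mice 1 to 4 and Cxcl10 at 31.5, 0, 2165 and 30.7 CPM. Of the 84 genes, 50 (59.5%) were also at least 4-fold higher in the TAL cells of that mouse. Endothelial cells of mouse 3 held a Cxcl10 UMI in 69.5% of cases, against 80.0% of its DCT cells, with median depths of 5124 and 4490 UMIs. Gbp2 was detected in 68.0% of DCT cells of mouse 3 and in 89.2% of its endothelial cells. Endothelial cells can make these transcripts themselves, so for these genes their shares are no measure of free RNA, and the part of free RNA in the values of DCT cells was not tested.

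**Figure D5:**
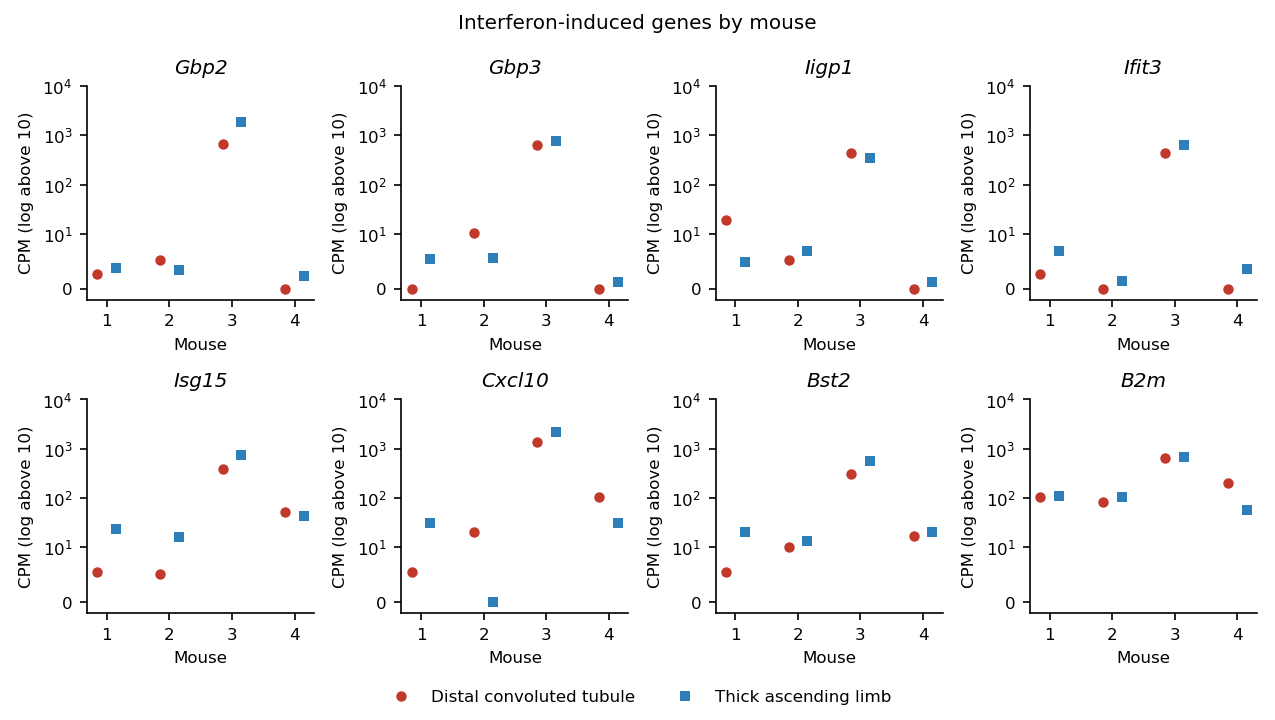
CPM (log scale above 10, linear below) of 8 interferon-induced genes by mouse in summed DCT cells (circles) and TAL cells (squares). In mouse 3 both classes lie above the other mice for each gene, with Cxcl10 at 1347 CPM in DCT cells and 2165 CPM in TAL cells.

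The same mouse 3 list held genes of smooth muscle and vessel wall cells. Ednrb, an endothelin receptor, was at 615 CPM in its DCT cells and came from 4 of them, Acta2, smooth muscle actin, was at 527 CPM from 6 and Tagln at 492 CPM from 4. Without the 5 cells of mouse 3 with stromal or endothelial markers, Ednrb, Acta2 and Tagln were at 9.47, 37.9 and 18.9 CPM, while Gbp2 and Gbp3 were at 767 and 720 CPM. Most UMIs of Ednrb, Acta2 and Tagln thus lay in those cells, and most of Gbp2 and Gbp3 did not.

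In mouse 4, after Calca from 2 cells, the list was led by transcripts that were as high in its TAL cells. The mitochondrial transcript mt-Co2 was at 19.0, 0, 0 and 1113 CPM in DCT cells and 24.3, 24.1, 24.7 and 1183 CPM in TAL cells of mice 1 to 4. Rpl38, a ribosomal protein gene, was at 27.2, 36.3, 34.2 and 1000.4 CPM in DCT cells and 76.1, 67.4, 80.3 and 936 CPM in TAL cells. Of the 175 genes, 101 (57.7%) were also at least 4-fold higher in the TAL cells of mouse 4. The level of S100g in DCT cells of mouse 4, given above, went with 1099 CPM in its TAL cells and 698 CPM in its endothelial cells, against 191 and 28.5 CPM or less in mice 1 to 3. The part of library 4 in these values cannot be told apart from the mouse.

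Besides the connecting tubule markers given above, the DCT cells held the following sums of markers of other cell types. The 8 thick ascending limb markers summed to 934, 659, 321 and 354 CPM in mice 1 to 4, with 1 at 0 throughout, and the 6 principal cell markers to 95, 88.2, 47.9 and 103 CPM, with 2 at 0. The sums were 288, 171, 424 and 94.9 for 8 proximal tubule markers, with 0 of 8 at 0 in every mouse. They were 201, 529, 68.4 and 17.2 for 5 neutrophil markers and 29.9, 0, 34.2 and 431 for 6 macrophage markers, of which 1 was at 0 throughout. Stromal markers summed to 5.43, 5.19, 438 and 0 (1 of 5 at 0 throughout), endothelial markers to 38.0, 67.5, 376 and 25.9 (1 of 6), intercalated cell markers to 32.6, 10.4, 6.84 and 276 (2 of 6) and all 3 B lymphocyte markers were at 0. T lymphocyte markers summed to 0, 10.4, 6.84 and 69.0 and podocyte markers to 8.15, 0, 27.4 and 0. In endothelial cells of the same mice the macrophage markers summed to 31.9, 37.4, 26.6 and 334 and the neutrophil markers to 279, 469, 58.6 and 21.3. The highest macrophage sum was in mouse 4 and the highest neutrophil sum in mouse 2 in both classes, while the macrophage markers of mouse 2 had no UMI in DCT cells.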

How the data were processed

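The authors deposited 1 sparse matrix of UMI counts per library, whole numbers for 57132 genes, made with Cell Ranger 9.0.1 per the file headers; the submitters' processing notes also name Seurat 4.1.1, with no role. The genome build, annotation, strand setting and handling of reads shared between close paralogs (such as Mt1 and Mt2, or Gbp2 and Gbp3) are not given in the sources used here. Every deposited barcode had 500 UMIs or more.

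DCT, TAL, Calb1-positive and endothelial cells (at least 2 Pecam1 UMIs, a UMI of Emcn, Kdr or Flt1, no Ptprc) were selected per library by the gene limits in the text, with no clustering and no doublet caller. CPM are summed UMIs of a class per 1000000 UMIs of that class and mouse. Counts per mouse and class were tested with edgeR 4.0.16 in R 4.3.3 (quasi-likelihood test, TMM, filterByExpr, mouse as a block, since both classes come from the same mouse, Benjamini-Hochberg), leaving out a mouse with under 10 cells in a class. The code was tested on simulated counts, drawn with the same fixed dispersion for every gene and a mouse effect shared by both classes. The dispersion of the real counts was not used, so the shares called in the simulation need not hold for them. In that simulation 14.7% of 2-fold and 78.9% of 4-fold changes were called for DCT against TAL cells. Against Calb1-positive cells the shares were 8.79% and 72.3%. A gene that was not called can thus still differ 2-fold. DESeq2 1.42.0 was an alternative. Each class of a mouse is 1 value, so p-values weigh the mean difference between classes against its variation from mouse to mouse. Depths of 115953 to 368264 UMIs limit what DCT cells can show.

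All genes of the lists on NCC, magnesium, calcium, ENaC and identity could be named; of other lists up to 6 called genes moving 1 way in every mouse, plus Lcn2, Havcr1, Spp1 and Clu; over all genes the 10 largest each way at 50 CPM or more; and 8 genes per mouse for those high in 1 mouse. Exceptions are stated, and 1 gene of the 10 largest towards Calb1-positive cells is not reported here. The cells, lists and tests were chosen with earlier results of these data known. The planned test of Pvalb-high against Pvalb-low cells could not be run. Of the gene identifiers 51880 matched the reference names, and symbols are those of the files.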

Additional observations from a re-analysis of the deposited data

Results flagged for a closer look

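In 8 of 29 genes examined 1 mouse stood apart from the other 3 by the gap to its nearest neighbour relative to the whole range of the 4 mice, a criterion that chance meets in about 1 of 20 groups. The share of DCT cells and their median depth, mitochondrial and ribosomal shares did not meet it. Some of the 29 genes had been picked because they stood out in 1 mouse, so the count of 8 cannot be read against that chance share. In DCT cells, mouse 1 was high in Slc8a1, at 6463 CPM against 1422 CPM in the next mouse. Mouse 3 was high in Pvalb (123 CPM against 20.8), Cxcl10 (1347 CPM against 103), Isg15 (397 CPM against 51.7) and Gbp2 (657 CPM against 5.19). Mouse 4 was high in S100g (34824 CPM against 6168), Mt1 (22759 CPM against 4623) and Fxyd2 (8038 CPM against 2229). The 18 Pvalb UMIs of mouse 3 came from 3 cells. In TAL cells Mt1 was at 1656, 1640, 8708 and 20689 CPM in mice 1 to 4, and Isg15 at 23.8, 16.5, 766 and 42.5 CPM.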

How the results depend on the processing

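The numbers of genes called depended on the setting, and no named gene changed direction in any setting run. Leaving out 1 mouse gave 116 to 528 higher and 138 to 637 lower genes for DCT against TAL cells, and 76 to 352 higher and 83 to 378 lower genes against Calb1-positive cells. Both classes of a comparison come from the same mouse, so the mouse pairs them. Without this block 54 higher and 65 lower genes remained against TAL cells, all among those called with it, and 8 and 9 against Calb1-positive cells. No filter on low counts gave 860 and 473 lower genes in the 2 comparisons. Thinning each cell to 1000 UMIs, which left 1327 and 374 genes to test, gave 110 higher and 89 lower and 42 higher and 32 lower. DESeq2 called 142 higher genes against Calb1-positive cells. Alternatives chosen after seeing the data were no Umod limit (573 lower against TAL cells, 387 higher and 504 lower against Calb1-positive cells), 10 or more Slc12a3 UMIs per 10000 (430 lower against Calb1-positive cells) and leaving out cells with stromal or endothelial markers (378 higher and 376 lower there). The mean share of DCT cells was 0.997% with no limits on Umod, Gpx3 and Aqp2 and 0.858% with no Umod limit. Genes high in 1 mouse numbered 16, 152, 220 and 427 at 2-fold and 0, 0, 31 and 43 at 8-fold. The mean of Slc8a1 in DCT cells was 2301 CPM, 913 CPM without mouse 1 and 793 CPM without cells over 2 times the median UMIs. That of S100g was 11578 CPM and 3829 CPM without mouse 4. The planned contrast of Pvalb-high with Pvalb-low cells was not run, since 1 cell was Pvalb-high. DCT cells of mouse 4 held 115953 UMIs, so a count of 0 there allows up to 25.9 CPM.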
